A study of Homo sapiens with 24 samples.

Results

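The genes described here are 98 genes taken by name as those of the extracellular matrix and of cell adhesion. Among them are collagens, laminins, integrins, cadherins, protocadherins, matrix metalloproteases and their relatives. The 98 were selected on the contrast between FOXP1 and GFP cultures measured on these same arrays. The published lists of genes that differed between the cultures of each cell line hold 3504 symbols. The members are the 98 of these whose names begin with the symbol of such a family. By their opening letters they include CLDND2 and LOXHD1, which were placed in none of the families. A list was used for each of the 3 lines, and those for IMR-32 and SK-N-BE(2) were held only in part. Of the members, 58 were on the list for IMR-32, 42 on that for CHP-212 and 21 on that for SK-N-BE(2), with 76 on 1 list, 21 on 2 and 1, TIMP3, on 3. A member is called listed for a line where that line's list holds it. Because the lists came from these arrays, the difference between FOXP1 and GFP in a line for which a member was listed is given as a description. No p-value is given for it, and counts of calls among listed members only describe the choice.

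The study asked which transcripts change when the forkhead transcription factor FOXP1 is supplied to neuroblastoma cells. RNA from the 3 established lines SK-N-BE(2), IMR-32 and CHP-212, all human neuroblastoma, was hybridised to 24 arrays of 1 colour, each with 43291 probes besides controls. Each line had a culture carrying FOXP1 and a culture carrying GFP as the control, both introduced by retrovirus under a doxycycline-controlled promoter, and both were sampled 0, 12, 24 and 72 h after doxycycline, which gave 6 groups of 4 arrays. The cultures were polyclonal pools of transduced cells and the promoter leaked, so that the 0 h arrays were no true baseline. The 4 arrays of a group were time points of a single culture and not independent replicates, so the p-values here measure only the spread between those arrays, which includes the time course.

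The extracellular matrix is a meshwork of collagens, laminins and other glycoproteins that cells secrete, crosslink with lysyl oxidases and remodel with proteases of the matrix metalloprotease and ADAMTS families, which the TIMP proteins inhibit. Integrins anchor cells to this meshwork, whereas cadherins and protocadherins bind their like on neighbouring cells and help neurons tell each other apart. Neuroblastoma arises from the sympathoadrenal lineage of the neural crest, whose cells change adhesion and matrix production as they migrate and mature.

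The level of a probe is the log2 of its processed signal minus the 75th percentile of its array, so levels can be set against each other for a probe but not between probes. Per-array values are given in the order 0, 12, 24 and 72 h. The FOXP1 probe read 2.60, 2.76, 2.66 and 2.38 in the FOXP1 culture of IMR-32 and 1.05, 1.19, 1.39 and 1.18 in its GFP culture. It read 2.81, 3.28, 3.00 and 2.94 in the FOXP1 culture of CHP-212 and 0.77, 1.21, 1.08 and 1.05 in its GFP culture. FOXP1 was thus 2.64-fold higher in IMR-32 and 3.94-fold higher in CHP-212, already at 0 h. In SK-N-BE(2) the probe read 2.97, 2.84, 2.63 and 2.73 on the arrays labelled FOXP1 and 3.00, 3.30, 2.87 and 2.81 on those labelled GFP. The difference of -0.20 did not pass the test (limma, Benjamini-Hochberg adjusted p = 0.91, lower at each of the 4 times), so in this line the samples are called the arrays labelled FOXP1. Whether the probe reads the transgene as well as the cells' own transcript is not given in the sources used here.

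Each slide held 4 arrays of 1 line, from both cultures at 0 and 12 h or at 24 and 72 h. On the arrays of IMR-32 between 72.8% and 82.3% of probes were flagged as well above background, and on those of SK-N-BE(2) between 73.6% and 80.4%. The CHP-212 slide of 0 and 12 h stood apart, with 60.4% and 58.1% in the GFP culture and 53.9% and 55.7% in the FOXP1 culture, against 78.0% to 81.5% on the line's other slide. There, 9 members were well above background at 24 and 72 h and not at 0 and 12 h. Calls in CHP-212 that were lost without that slide are named with their values on the other slide.

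A probe was tested in a line where at least 4 of the line's 8 arrays had it well above background, and it was called where the adjusted p was under 0.05 and the fold at least 2. By this filter 77 members were tested in at least 1 line, 52 in all 3, and 21 in none. Of the 58 members listed for IMR-32, 50 were tested and 48 called, 27 higher and 21 lower, where 12.2% of all probes were called, 6.34% higher and 5.86% lower. The 8 others included 2 that were well above background on no array of the line and 6 that were on 1 to 3 arrays. In CHP-212, 26 of the 42 listed members were tested and 16 called, 11 higher and 5 lower, beside 3.03% of all probes, 1.94% higher and 1.09% lower. The 16 others were well above background on no array in 5 cases and on 1 to 3 arrays in 11. In SK-N-BE(2), 13 of the 21 listed members were tested and 2 called, both higher, beside 0.72% of all probes, 0.426% higher and 0.294% lower. Of the 8 others, 1 was well above background on no array and 7 on 1 to 3 arrays. The choice of members fixed these counts, and a member that was well above background in a single culture could pass the filter only by differing, so nothing is read from them.

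Over the tested members the median difference was 0.37 in CHP-212, 0.19 in SK-N-BE(2) and -0.05 in IMR-32. The median size of the difference was 2.19 in IMR-32, where it was 0.30 over all probes tested, 0.72 in CHP-212, where all probes had 0.27, and 0.39 in SK-N-BE(2), against 0.18. With the 6 members of IMR-32 that have only a bound in a culture set at that bound, the median size there was 2.08. The lists took genes for their size of difference on these arrays, so the sizes over members were fixed by the choice and nothing is read from them. With the 24 and 72 h arrays alone, 10 members were called in CHP-212, 7 higher and 3 lower, against 16 with both slides. Of the 16, 8 were called in both settings, ADAMTS12, CDH18, COL8A1, ITGBL1, LAMC3, PCDH20, PCDH8 and THBS4. The 8 calls lost were those of CDH10, CDH2, CLDN23, ITGA11, LOXL2, PCDHB16, PCDHB7 and SPON2, each with its sign kept, and PCDH7 and ADAMTS9 were called in addition, at 2.92 and 1.31. In SK-N-BE(2) no member was called by limma on the 12, 24 and 72 h arrays, a setting under which 40 of all probes were, and on the 24 and 72 h arrays with the spread of all groups 2 were, both higher, beside 106 of all probes. With the time points as a block 6 were, 5 higher and 1 lower, beside 477 of all probes. At 0 h, before doxycycline, 42 of the 48 listed members called in IMR-32 and 13 of the 16 in CHP-212 differed by at least 2-fold. For this a dim array was set at the lowest signal well above background on it or at the probe's own if higher. The 0 h arrays entered the means that chose and called these members, so these counts follow in large part from the choice. In RNA from whole cultures, fewer cells that make a transcript and less of it in each cell cannot be told apart.

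**Figure D1:**
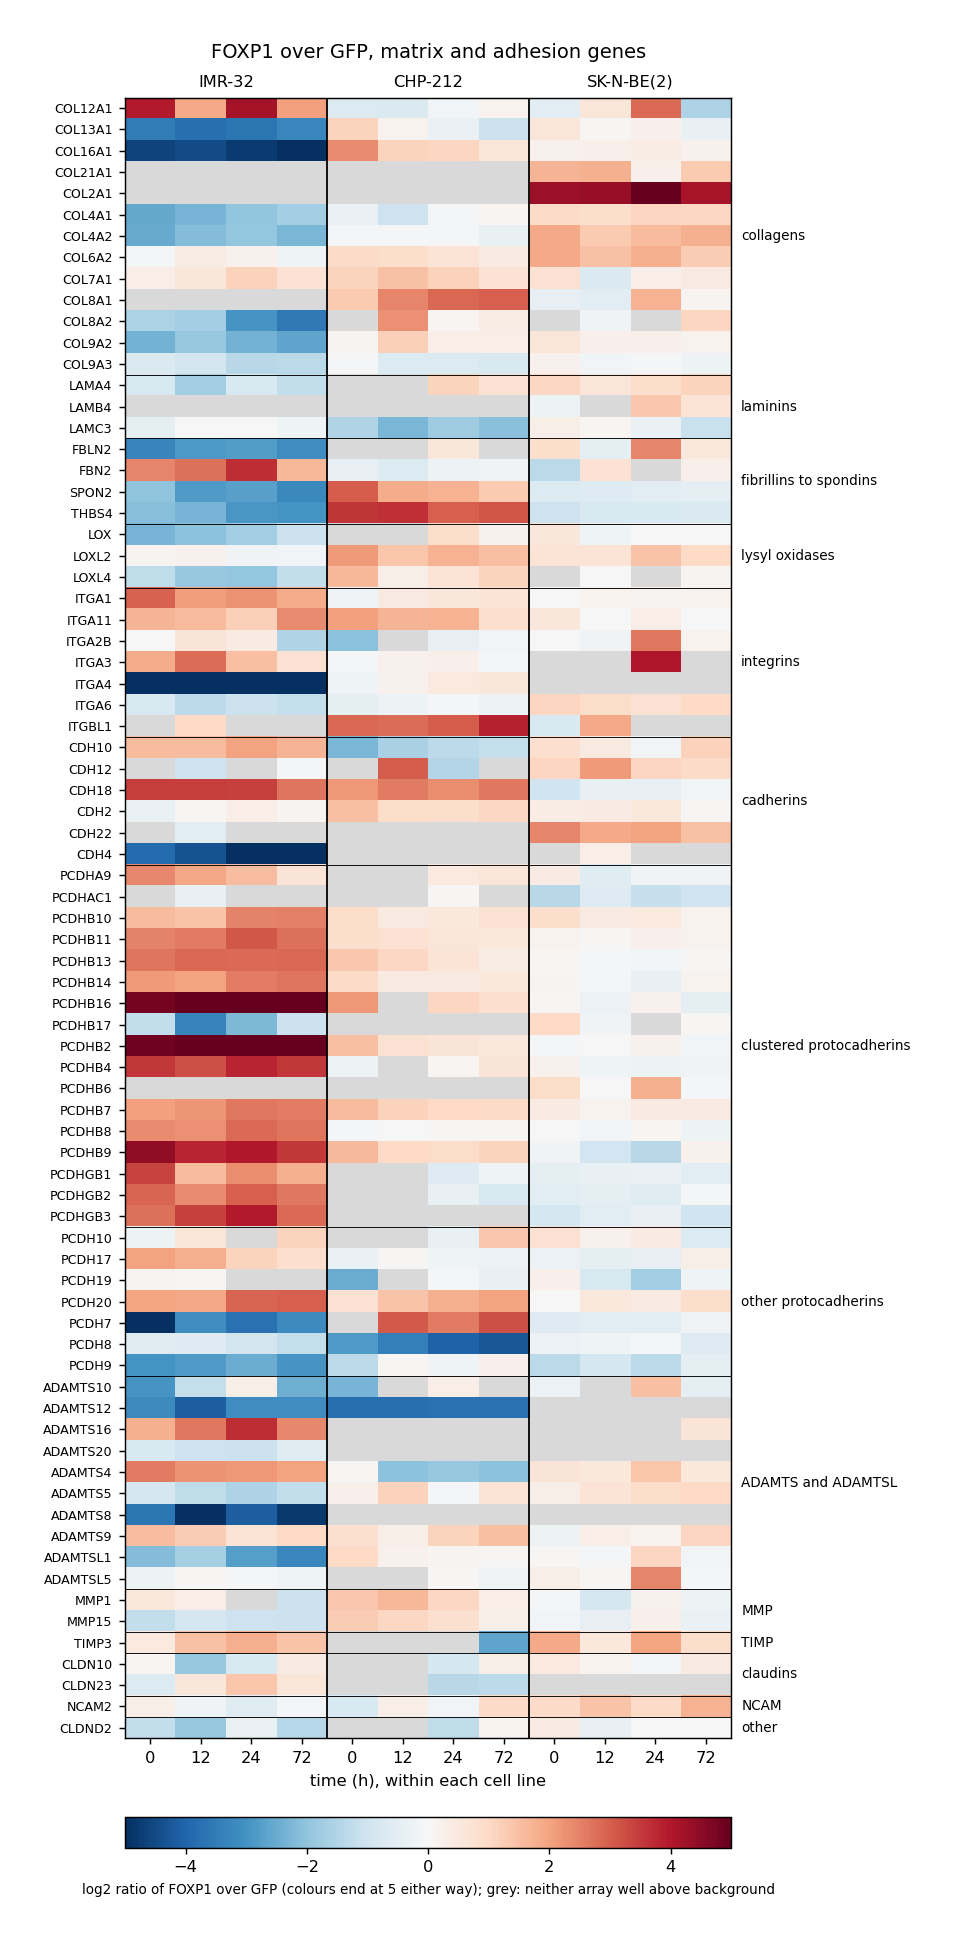
Log2 ratio of FOXP1 over GFP for the members tested in at least 1 line, by family, at 0, 12, 24 and 72 h in each line, with red for higher and blue for lower in the FOXP1 culture, colours that end at 5 either way and grey where neither array was well above background. Differences in IMR-32 are present at 0 h, and the sizes over members follow from the choice of members.

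Some members stood close to the 2-fold limit of the lists, or on its other side by the values used here. Just inside for IMR-32 were MMP15, at -1.04, and ITGA6, at -1.09, and of the members not listed there ADAMTS20 was at -0.88. For CHP-212 the smallest differences among listed members tested were those of CLDN10, at -0.27, and PCDHGB2, at -0.50, both well under 2-fold by the values used here. The largest among members not listed there were LAMA4, at 1.00, and LOXL4, at 0.94. In SK-N-BE(2), ITGA2B, at 0.65, and ADAMTSL5, at 0.69, were listed though under 2-fold. CDH12, at 1.30, and LOXL2, at 0.94, were not in the part of the list held, and may stand on the rest. Without the 24 h array labelled FOXP1, ITGA2B was at -0.04 and ADAMTSL5 at -0.13, so the sign of both rested on that array.

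Collagens, the fibrous and sheet-forming proteins of the matrix, numbered 16 members, of which 10 were listed for IMR-32. In that line 10 collagens could be tested, listed or not, and 1 was called higher and 7 lower. Counts of calls by family, here and below, stand beside 6.34% of all probes called higher and 5.86% lower in IMR-32. In CHP-212 the shares were 1.94% and 1.09%, and in SK-N-BE(2) 0.426% and 0.294%. Such counts follow in large part from the choice of members, and nothing is read from them. COL4A1 and COL4A2 encode the chains of the main type IV collagen of basement membranes. In IMR-32, COL4A2 read 1.84, 2.17, 2.09 and 1.78 with FOXP1 and 4.35, 4.35, 4.03 and 4.07 with GFP. COL4A1 read -2.66, -2.92, -2.43 and -2.49 with FOXP1 and -0.10, -0.58, -0.46 and -0.78 with GFP. Each FOXP1 array lay below each GFP array for both genes, which were 4.68-fold and 4.43-fold lower. Under normexp, a background correction that shrinks the differences of dim probes, COL4A1 was at -1.52 and no longer called, and of the 7 collagens lower in IMR-32 only COL4A2 and COL16A1 were called. In SK-N-BE(2) the order was turned: COL4A2 read 2.34, 2.16, 2.14 and 2.67 on the arrays labelled FOXP1 and 0.44, 0.85, 0.57 and 0.91 with GFP. That is 3.11-fold higher, and the call was lost on the 12, 24 and 72 h arrays, at 1.55, and made on the 24 and 72 h arrays with the spread of all groups, at 1.67. COL4A1 read -1.86, -2.17, -1.41 and -1.33 on the arrays labelled FOXP1 of that line and -2.83, -3.07, -2.47 and -2.37 with GFP, a difference of 0.99 that was not called. In CHP-212 neither gene was listed.

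The genes for COL4A1 and COL4A2 lie head to head, with starts 127 bases apart, so that their promoter windows of 300 bases share 226 bases. The promoter of COL4A2 is shown because both genes were lower with FOXP1 in IMR-32. It spans chr13:110307034-110307333 of GRCh38.p14, plus strand, from 250 bases before to 50 bases after the start of the gene as RefSeq gives it, written 5′ to 3′ with the letters CCAAT in capitals:
COL4A2: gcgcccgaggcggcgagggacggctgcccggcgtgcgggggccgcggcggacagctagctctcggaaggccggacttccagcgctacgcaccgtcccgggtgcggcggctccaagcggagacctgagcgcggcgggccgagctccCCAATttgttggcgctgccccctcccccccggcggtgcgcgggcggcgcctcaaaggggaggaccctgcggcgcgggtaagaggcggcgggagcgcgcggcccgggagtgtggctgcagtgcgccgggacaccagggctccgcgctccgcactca
The CCAAT letters, searched on both strands, stand before the start of COL4A2, and 34.6% of the 35116 promoters in the table hold them. The bases before the start also hold the beginning of COL4A1 on the other strand.

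COL16A1, a fibril-associated collagen, was listed for CHP-212 and not in the part of the list held for IMR-32, where it nevertheless differed most among the collagens tested. It read -4.13, -4.05, -3.00 and -2.25 with FOXP1 and 0.48, 0.41, 1.79 and 2.73 with GFP in IMR-32. Both cultures climbed over the time course and never met. COL16A1 was lower at each of the 4 times. Its mean difference of -4.71, or 26.2-fold, passed the test (limma, Benjamini-Hochberg adjusted p = 0.000257). In CHP-212 the same probe was 1.29 higher with FOXP1 and was not called. As the rest of the list for IMR-32 was not held, COL16A1 may stand on it, and its p is no support independent of the choice of members.

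The other collagens lower in IMR-32 included COL8A2, a network-forming collagen of the cornea, which read -5.89, -5.22, -5.05 and -5.20 with FOXP1 and -4.29, -3.48, -2.10 and -1.64 with GFP. The gap widened from 0 to 72 h because the GFP culture climbed. COL9A2, a chain of the cartilage collagen type IX, was 4.99-fold lower, and COL13A1, a transmembrane collagen, had a difference of -3.55 with 2 of 4 FOXP1 arrays well above background. COL9A3 had a difference of -1.09 with cultures that overlapped. COL12A1, which sits on the surface of collagen fibrils, was the collagen called higher, at 3.03, with 1 of 4 GFP arrays well above background, a call lost without the 0 h arrays, at 2.71.

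In CHP-212, 1 of 11 collagens tested was called. COL8A1, the partner chain of COL8A2, read -0.49, 0.37, 0.49 and 0.61 with FOXP1 and -1.78, -2.07, -2.37 and -2.39 with GFP, 5.27-fold higher with no overlap. COL7A1, the collagen of anchoring fibrils, was listed and 1.12 higher without a call. COL8A2 was listed as well, 1.11 higher without a call, and 0.24 higher with the 24 and 72 h arrays alone.

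In SK-N-BE(2), 2 of 12 collagens tested were called, COL4A2 and COL2A1, the main collagen of cartilage. COL2A1 read -3.94, -4.04, -1.91 and -3.38 on the arrays labelled FOXP1 and -8.20, -8.41, -6.90 and -7.51 with GFP, where 0 of 4 arrays had it well above background. It was at least 8.15-fold higher, a bound obtained by setting each dim array at the lowest signal well above background on it, or at the probe's own if higher. The difference was 4.44, and the call was lost on the 12, 24 and 72 h arrays, at 4.50, and made on the 24 and 72 h arrays with the spread of all groups, at 4.56. COL6A2, a chain of the microfibrillar collagen VI, was 1.62 higher and COL21A1 1.25 higher, neither called in the unpaired test, though COL6A2 was with time as a block.

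Laminins, the trimeric proteins on which basement membranes assemble, had 3 members. LAMC3 in CHP-212 read -1.28, -2.02, -1.14 and -1.68 with FOXP1 and 0.23, 0.25, 0.65 and 0.40 with GFP, 3.76-fold lower with no overlap. LAMA4, the alpha chain of endothelial basement membranes, read -4.38, -4.30, -3.82 and -3.82 with FOXP1 and -3.59, -2.56, -3.04 and -2.59 with GFP in IMR-32, a difference of -1.14 that was called. It was not listed for CHP-212, where it was 1.00 higher, at 4 of 4 times, with 2 of 4 arrays of each culture well above background and did not pass the test (limma, Benjamini-Hochberg adjusted p = 0.0521). LAMB4 was listed for CHP-212 and well above background on none of its 8 arrays.

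Among the fibrillins, fibulins, thrombospondins and spondins, glycoproteins that organise fibres or modulate attachment, 1 was higher and 3 lower among the calls in IMR-32, with 0 of these 4 called under normexp. FBLN2, a fibulin that binds basement membranes and elastic fibres, read -4.31, -3.62, -3.13 and -2.85 with FOXP1 and, after its lowest reading at 0 h, -0.75, -0.32 and 0.25 with GFP there. FBLN2 was thus 8.12-fold lower, with both cultures climbing over time. FBN2, a fibrillin of developing microfibrils, was 2.63 higher with 3 of 4 GFP arrays well above background.

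THBS4, a thrombospondin of tendon and nervous tissue, and SPON2, a spondin that binds integrins, were listed for CHP-212, where both were higher. THBS4 read 1.20, 0.98, 0.79 and 0.52 with FOXP1 and -2.38, -2.68, -2.21 and -2.61 with GFP in CHP-212, 10.1-fold higher. SPON2 read 4.33, 3.21, 3.43 and 2.66 with FOXP1 and 1.29, 1.35, 1.69 and 1.34 with GFP, 3.97-fold higher. Both FOXP1 series were highest at 0 h and lowest at 72 h, and neither overlapped the GFP series. With the 24 and 72 h arrays alone SPON2 was at 1.53 and not called.

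In IMR-32 the same 2 probes were lower with FOXP1. THBS4 read -3.47, -3.33, -3.36 and -3.09 with FOXP1 and -1.36, -1.01, -0.46 and -0.11 with GFP. It was lower at 4 of 4 times, 5.97-fold on the means (limma, Benjamini-Hochberg adjusted p = 6.85e-05). SPON2 read -4.92, -5.27, -4.90 and -5.03 with FOXP1 and -2.92, -2.43, -2.20 and -1.83 with GFP. It was lower at 4 of 4 times, 6.44-fold on the means (limma, Benjamini-Hochberg adjusted p = 2.08e-05). The FOXP1 culture stayed level while the GFP culture climbed, and what was said of COL16A1 and the list for IMR-32 holds for both genes. Under normexp THBS4 was at -1.68 and no longer called. COL16A1, THBS4 and SPON2 were the 3 called of the 18 members tested but not listed in IMR-32, where 5 had an unadjusted p under 0.05, beside 32.6% of all probes.

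**Figure D2:**
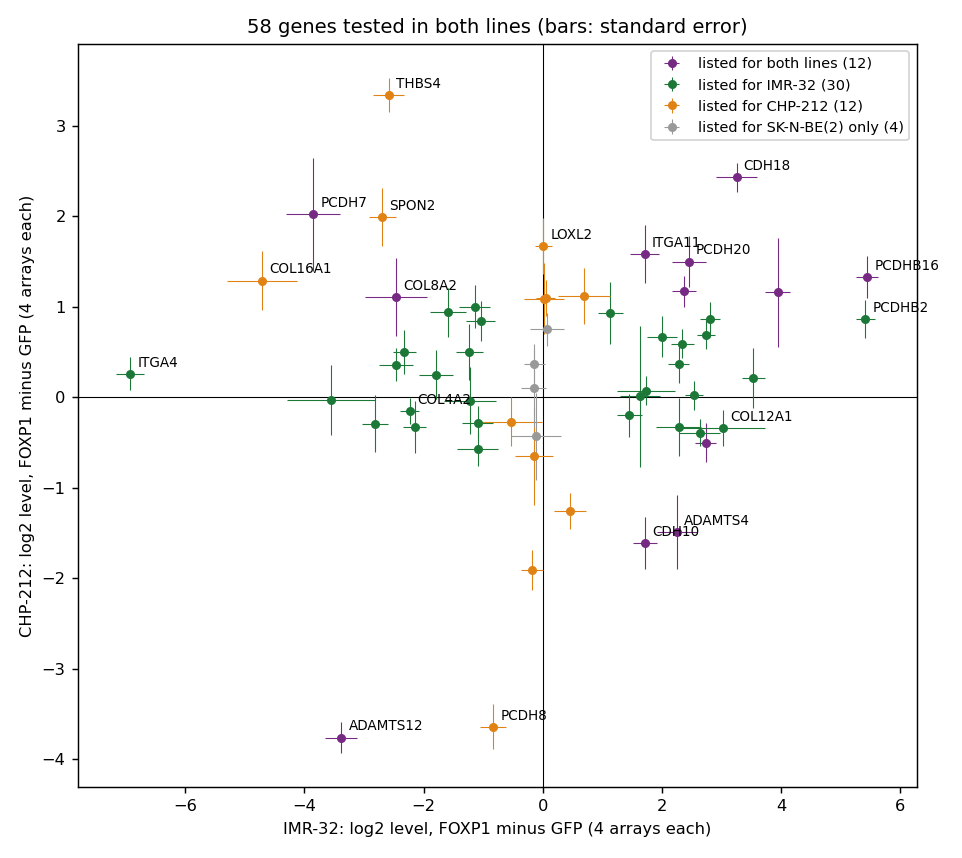
Log2 difference of FOXP1 minus GFP in IMR-32 on the horizontal axis and in CHP-212 on the vertical axis, with standard errors as bars, 1 point for each of 58 members tested in both lines, coloured by the lists that hold it. THBS4, SPON2 and COL16A1 lie where the difference is below 0 in IMR-32 and above 0 in CHP-212, and CDH10 lies on the opposite side.

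Lysyl oxidases crosslink collagen and elastin. LOX and LOXL4 were lower in IMR-32, at -1.79 and -1.59, neither called under normexp. LOXL2 was higher in CHP-212 by 3.19-fold, a call lost with the 24 and 72 h arrays alone, at 1.61, and showed no difference of size in IMR-32, at 0.01.

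Integrins, the receptors through which cells grip the matrix, had 8 members, of which 6 were tested in IMR-32, with 3 higher and 2 lower among the calls. ITGA4 pairs with ITGB1 to bind fibronectin and VCAM1. It read -2.28, -1.79, -1.50 and -1.99 with GFP in IMR-32 while 0 of 4 FOXP1 arrays had it well above background, at -8.96, -8.99, -8.26 and -9.03. ITGA4 was thus at least 27.7-fold lower, and its FOXP1 arrays lay far below its GFP arrays at each time, 0 h included. Under normexp the difference was -2.23 and not called.

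ITGA1, a collagen and laminin receptor subunit, moved the other way. It read 0.42, -0.11, -0.05 and -0.22 with FOXP1 and -2.51, -2.19, -2.30 and -2.08 with GFP in IMR-32, 4.86-fold higher. ITGA11, which binds fibrillar collagen, read -1.97, -1.48, -2.16 and -1.22 with FOXP1 and -3.65, -3.06, -3.37 and -3.61 with GFP, 3.28-fold higher. The cultures did not overlap for either gene. ITGA3, a laminin receptor subunit, was 1.73 higher with 2 of 4 GFP arrays well above background and overlapping cultures, and its call was lost on leaving out the GFP array of 0 h, at 1.50, or of 12 h, at 1.33, or the FOXP1 array of 12, 24 or 72 h, at 1.78, 1.57 or 1.64. ITGA6, another laminin receptor subunit, was called lower, at -1.09.

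In CHP-212, ITGA11 read 1.63, 0.77, 0.98 and -0.01 with FOXP1 and -0.43, -0.91, -0.75 and -0.86 with GFP, 2.99-fold higher with a gap that narrowed with time. Its call there was lost with the 24 and 72 h arrays alone, at 1.29, and on leaving out any GFP array or the FOXP1 array of 12 or 24 h, at 1.52 to 1.68. ITGBL1, a secreted protein with integrin-like repeats, read -1.97, -1.64, -1.71 and -1.05 with FOXP1 and -4.84, -4.43, -4.74 and -4.89 with GFP. That is 8.76-fold higher on the means, with 2 of 4 GFP arrays well above background. The GFP arrays of 0 and 12 h were not, so this fold is not fully measured. With the 24 and 72 h arrays alone the difference was 3.43 and called.

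In SK-N-BE(2) ITGA6 was not in the part of the list that was held. It read 0.46, 0.63, 0.12 and 0.30 on the arrays labelled FOXP1 and -0.61, -0.30, -0.66 and -0.68 with GFP. The difference of 0.94, higher at 4 of 4 times, had an adjusted p of 0.0493 (limma, Benjamini-Hochberg) but was under 2-fold, so it was not called. Its direction was opposite to that in IMR-32, and the difference between lines was not tested.

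Cadherins, calcium-dependent adhesion molecules that bind their own kind, had 9 members. CDH4, the retinal cadherin, was close to background with FOXP1 in IMR-32. It read -2.52, -2.79, -2.61 and -1.51 with GFP and -6.37, -7.13, -8.24 and -8.16 with FOXP1, where 1 of 4 arrays was well above background. The difference of -5.12 was -1.65 and not called under normexp. CDH18, a cadherin of the central nervous system, read 2.19, 2.58, 3.11 and 2.98 with FOXP1 and -1.28, -0.85, -0.31 and 0.30 with GFP in IMR-32, 9.54-fold higher.

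In CHP-212, CDH18 read -1.98, -1.49, -1.59 and -1.51 with FOXP1 and -4.14, -4.09, -3.91 and -4.13 with GFP, 5.38-fold higher. CDH18 was thus higher with FOXP1 at each time in both lines. CDH2, or N-cadherin, the main classical cadherin of neural cells, read 4.32, 3.77, 4.03 and 4.38 with FOXP1 and 2.80, 2.83, 3.13 and 3.33 with GFP in CHP-212, 2.14-fold higher, a call lost with the 24 and 72 h arrays alone, at 0.97. It was not listed for IMR-32, where it differed by 0.05.

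CDH10, another cadherin of the nervous system, differed between lines. In IMR-32 it read -2.93, -2.69, -3.09 and -3.12 with FOXP1 and -4.52, -4.29, -5.12 and -4.80 with GFP, 3.31-fold higher. In CHP-212 it read 2.35, 2.97, 3.40 and 3.77 with FOXP1 and 4.64, 4.60, 4.70 and 4.98 with GFP, 3.05-fold lower. The gap in CHP-212 narrowed as the FOXP1 culture climbed, whereas the opposite sign of the lines held at each time. The call in CHP-212 was lost with the 24 and 72 h arrays alone, at -1.25, and without the GFP array of 24 or 72 h, at -1.62 or -1.53, or the FOXP1 array of 12 h, at -1.56. CDH22 was at -0.82 ± 0.49 (SD, n = 4) on the arrays labelled FOXP1 of SK-N-BE(2) and at -2.78 ± 0.86 with GFP, without overlap. This difference of 1.96 was not called in the unpaired test, but it was with time as a block, and also without the GFP array of 72 h, at 2.36.

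The clustered protocadherins, whose alpha, beta and gamma genes stand in rows on chromosome 5 and give each neuron a combination of surface labels, were the largest family, with 19 members, 16 of them listed for IMR-32. In that line 15 could be tested, and 14 were called higher, 10 of them also under normexp, and 1, PCDHB17, lower. Beside these stand 6.34% and 5.86% of all probes. All 15 were listed for IMR-32, so the choice of members fixed this count. The sign of PCDHB17 turned to 0.11 under normexp, its call was lost with the 24 and 72 h arrays alone, at -1.66, and it is a pseudogene. Genes of these clusters are close in sequence, so a probe can bind the transcript of a neighbour, and values of single members are uncertain for that reason. In CHP-212, 13 were tested and 2 called, both higher, and in SK-N-BE(2) 17 were tested and 0 called by limma. The family's median difference was -0.07 in SK-N-BE(2) and 0.67 in CHP-212.

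**Figure D3:**
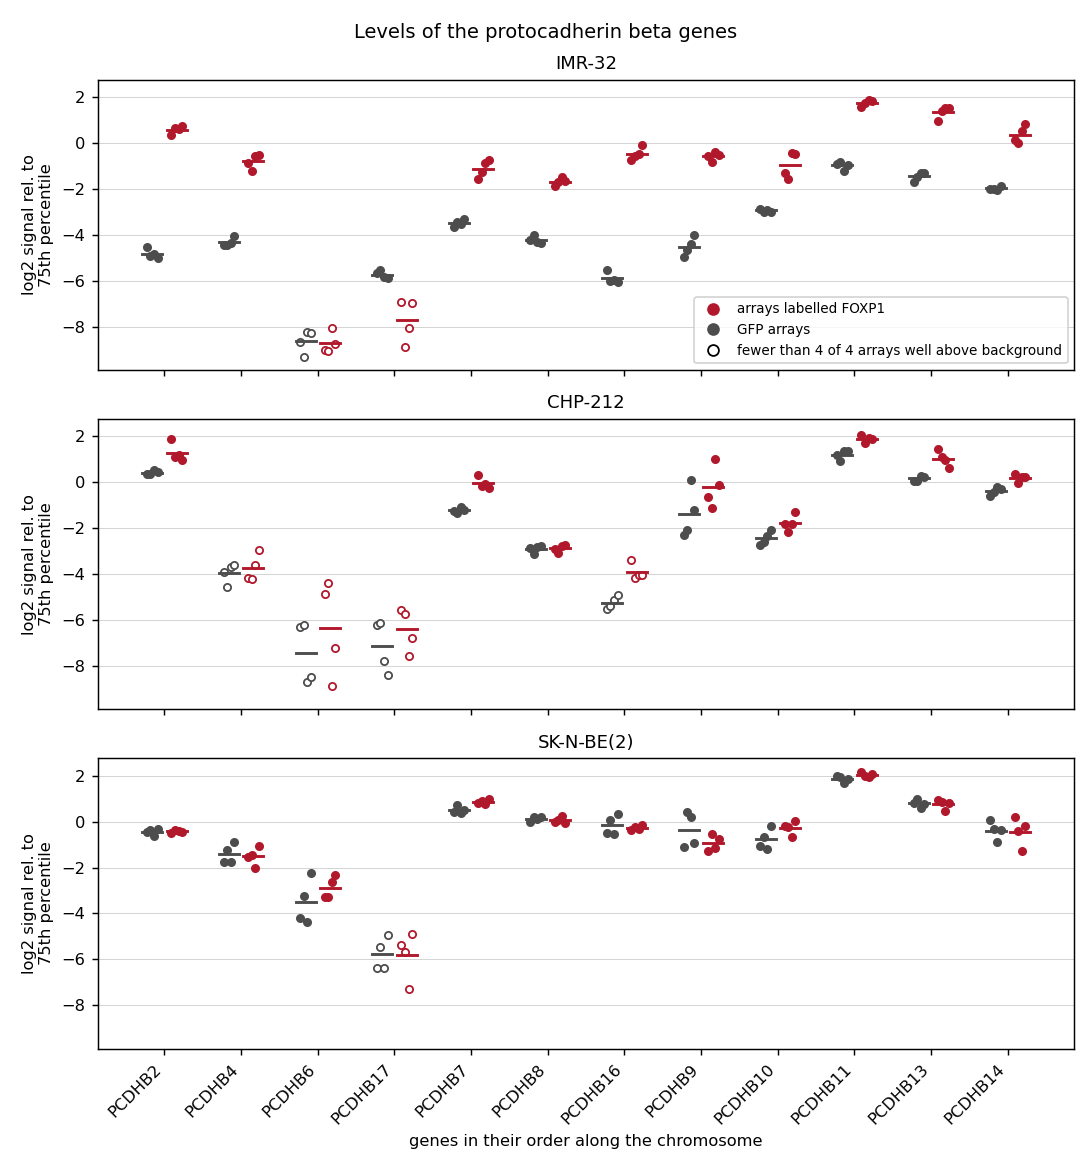
Levels of the beta protocadherin members in their order along the chromosome, log2 relative to the 75th percentile of the array, with a point for each array, bars for means, FOXP1 in red, GFP in grey and open points where fewer than 4 of 4 arrays were well above background. In IMR-32 the FOXP1 points lie above the GFP points except for PCDHB17, which turns under normexp, and PCDHB6, which is below background there, and in SK-N-BE(2) the cultures overlap for most members.

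The promoters of PCDHB2, PCDHB9 and PCDHB16 are shown because these 3 genes had the highest differences of FOXP1 over GFP among the members in IMR-32 and belong to 1 cluster. Promoters of clustered protocadherins are known to share a short conserved element before the start. The windows are 300 bases long, from 250 before to 50 after the start of each gene, from RefSeq on GRCh38.p14, plus strand, at chr5:141094365-141094664, chr5:141186911-141187210 and chr5:141182137-141182436. They are written 5′ to 3′, and capitals mark the letters GGTGGCGCT:
PCDHB2: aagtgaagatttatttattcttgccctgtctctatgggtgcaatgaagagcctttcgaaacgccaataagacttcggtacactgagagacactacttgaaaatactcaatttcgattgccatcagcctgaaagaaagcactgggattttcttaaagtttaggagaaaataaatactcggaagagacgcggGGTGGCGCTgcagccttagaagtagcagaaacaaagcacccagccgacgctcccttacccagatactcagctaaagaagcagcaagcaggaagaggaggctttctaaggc
PCDHB9: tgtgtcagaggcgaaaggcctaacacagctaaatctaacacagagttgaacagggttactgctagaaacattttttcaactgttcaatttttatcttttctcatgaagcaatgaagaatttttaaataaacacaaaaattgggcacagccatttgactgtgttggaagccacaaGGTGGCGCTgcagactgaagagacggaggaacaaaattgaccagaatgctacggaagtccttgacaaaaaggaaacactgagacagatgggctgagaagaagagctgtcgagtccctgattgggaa
PCDHB16: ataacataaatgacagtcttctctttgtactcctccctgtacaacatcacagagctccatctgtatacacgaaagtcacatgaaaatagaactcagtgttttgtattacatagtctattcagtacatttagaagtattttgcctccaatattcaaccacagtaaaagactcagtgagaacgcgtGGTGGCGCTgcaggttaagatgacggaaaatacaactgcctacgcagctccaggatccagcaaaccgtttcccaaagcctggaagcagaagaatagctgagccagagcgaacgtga
These letters, the run most shared by the promoters of the cluster, begin 60, 76 and 66 bases before the start. Searched on both strands, they stand in 13 of the 14 beta protocadherin promoters in the table and in 9 of 9 beta members that have one, against 0 of 7 alpha and gamma members and 0.501% of the 35116 promoters. The forkhead letters TGTTTAC, searched on both strands, stand in 3.42% of all promoters and in 1 of the 74 members with a promoter in the table, MMP27. These counts describe the windows and draw nothing about any factor.

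PCDHB16 in IMR-32 read -0.75, -0.57, -0.46 and -0.08 with FOXP1 and -5.55, -6.02, -5.99 and -6.04 with GFP, 43.3-fold higher. PCDHB2 read 0.33, 0.65, 0.59 and 0.73 with FOXP1 and -4.55, -4.93, -4.84 and -5.03 with GFP, 42.6-fold higher. PCDHB9 read -0.55, -0.84, -0.39 and -0.51 with FOXP1 and -4.96, -4.65, -4.41 and -4.03 with GFP, 15.3-fold higher. The cultures of these 3 genes were far apart from 0 h on, and neither moved by as much over the time course as the cultures differed.

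PCDHB4 was 11.6-fold higher, and PCDHB13, PCDHB11, PCDHB8, PCDHB7, PCDHB14 and PCDHB10 were higher by 2.81, 2.74, 2.54, 2.37, 2.34 and 2.00. Of the gamma genes, PCDHGB2 was higher by 2.73, PCDHGB1 by 2.28 with 2 of 4 GFP arrays well above background, and PCDHGB3 was at least 5.37-fold higher with 0 of 4. Of the alpha genes, PCDHA9 was 1.63 higher, a call lost in 1 fit of all 24 arrays and, at 1.10, with the 24 and 72 h arrays alone. The 10 of these calls also made under normexp were all of beta genes, and those of PCDHGB1, PCDHGB2, PCDHGB3 and PCDHA9 were lost there. Nothing is drawn from these calls about the shared letters.

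In CHP-212 the members called were PCDHB16, at 1.33 with 3 of 4 FOXP1 and 2 of 4 GFP arrays well above background, and PCDHB7, 2.25-fold higher. Both calls were lost with the 24 and 72 h arrays alone, at 0.97 and 0.98. PCDHB13 and PCDHB11 were not listed for this line and could be tested there. Their differences of 0.86 and 0.69, higher at 4 of 4 times, had adjusted p-values of 0.0416 and 0.0497 (limma, Benjamini-Hochberg) and were under 2-fold, so neither was called. PCDHGB2, listed for both lines, was higher in IMR-32 and at -0.50 in CHP-212, where normexp turned it to 0.20. In SK-N-BE(2), PCDHAC1 was the clustered member listed, at -1.04, and was called with time as a block but not in the unpaired test.

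The 9 protocadherins outside the clusters were mixed, with 2 higher and 2 lower among 7 tested in IMR-32. PCDH20, a delta protocadherin, read -1.21, -0.82, 0.02 and 0.04 with FOXP1 and -3.18, -2.77, -2.89 and -2.93 with GFP in IMR-32, 5.47-fold higher. It was 2.83-fold higher in CHP-212 with no overlap, a call lost on leaving out any GFP array or the FOXP1 array of 12 or 24 h, with differences of 1.45 to 1.56. PCDH9 was 7.03-fold lower in IMR-32 and at -1.01 in SK-N-BE(2), where it was not called. PCDH7 was at least 7.16-fold lower in IMR-32, on 0 of 4 FOXP1 arrays well above background, and 2.02 higher in CHP-212 without a call, though it was called with the 24 and 72 h arrays alone. Without the FOXP1 array of 0 h, the time at which it was lower in CHP-212, the difference there was 2.70 and called.

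PCDH8, a protocadherin of neural activity and of early mesoderm, read -6.06, -6.15, -6.46 and -6.33 with FOXP1 and -3.21, -2.75, -2.42 and -2.07 with GFP in CHP-212. The FOXP1 arrays of 24 and 72 h had it well above background, with ratios of -4.04 and -4.27. Those of 0 and 12 h did not, so it was at least 1.58-fold and 2.20-fold lower there, and no course over time can be read. PCDH17 was 1.45 higher in IMR-32. PCDH11Y belongs to the family and is counted, but its levels are not given.

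Claudins seal tight junctions. CLDN23 was called lower in CHP-212, at -1.26, with 2 of 4 arrays of each culture well above background, a call lost with the 24 and 72 h arrays alone, at -1.35. NCAM2, an immunoglobulin adhesion molecule of neurons, was listed for SK-N-BE(2), where it was 1.27 higher without a call in the unpaired test and called with time as a block.

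The secreted ADAMTS proteases, which trim procollagens and proteoglycans, and the ADAMTSL proteins that resemble them had 12 members. Of 10 tested in IMR-32, 3 passed as higher and 4 as lower. ADAMTS8, an antiangiogenic protease, read -3.80, -3.07, -3.09 and -2.19 with GFP while 0 of 4 FOXP1 arrays had it well above background, at -7.39, -8.09, -7.21 and -7.03. ADAMTS8 was at least 12.5-fold lower, and its call was lost under normexp. ADAMTS4, an aggrecanase, read 0.50, 1.11, 1.18 and 1.56 with FOXP1 and -2.09, -1.14, -0.97 and -0.44 with GFP, 4.76-fold higher. Both ADAMTS4 series climbed with time, and the gap narrowed from 2.59 at 0 h to 2.00 at 72 h. ADAMTS4 was listed for CHP-212 too, where it was at -1.49 and not called, and at -1.87 and called without the GFP array of 0 h.

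ADAMTS12 was lower in both IMR-32 and CHP-212. In CHP-212 it read -4.29, -4.29, -3.88 and -4.01 with FOXP1 and -0.51, -0.51, -0.14 and -0.28 with GFP, with 2 of 4 FOXP1 arrays well above background. At 0 and 12 h, where the FOXP1 arrays were not, it was at least 10.3-fold and 10.4-fold lower, and at 24 and 72 h the ratio was -3.74 at both. In IMR-32 it was at least 2.18-fold lower, with 0 of 4 FOXP1 arrays well above background. Under normexp its difference in IMR-32 was -0.08 and not called. In IMR-32, ADAMTSL1 and ADAMTS5 were lower, at -2.46 and -1.23, and ADAMTS16 and ADAMTS9 higher, at 2.63 and 1.13. Of the family's calls in IMR-32 only that of ADAMTS4 was also made under normexp, where ADAMTS5 was at -0.17.

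Matrix metalloproteases were mostly dim. MMP15, a membrane-bound member, was called lower in IMR-32, at -1.04. MMP1, the interstitial collagenase, was 1.09 higher in CHP-212 without a call. MMP13 and MMP27 were on 2 lists, as was ADAMTS6, and none of these was tested in any line. TIMP3, the inhibitor that stays bound to the matrix, read -0.72, 0.38, 0.64 and 0.52 with FOXP1 and -1.19, -1.08, -1.20 and -0.89 with GFP in IMR-32, 2.45-fold higher. The call was lost with the 24 and 72 h arrays alone, at 1.62, and in 1 fit of all 24 arrays. TIMP3 was 1.33 higher in SK-N-BE(2) without a call, and in CHP-212, with 1 of 8 arrays well above background, it was not tested.

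**Figure D4:**
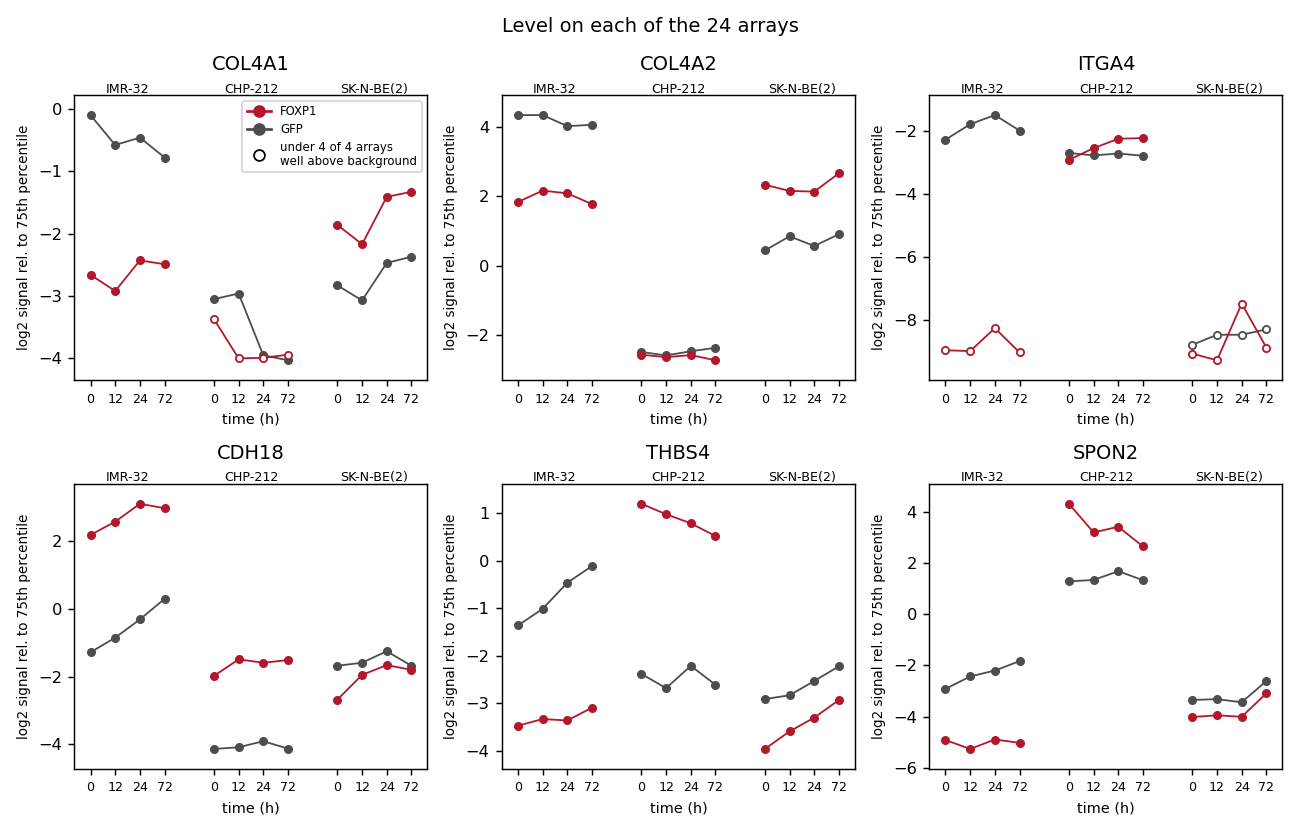
Levels of COL4A1, COL4A2, ITGA4, CDH18, THBS4 and SPON2 on each of the 24 arrays, log2 relative to the 75th percentile of the array, against hours after doxycycline in each line, with FOXP1 in red, GFP in grey and open points where fewer than 4 of 4 arrays were well above background. In IMR-32 the cultures differ at 0 h already for these genes, and THBS4 in the GFP culture of IMR-32 climbs from -1.36 to -0.11.

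Of the members, 13 were listed for both IMR-32 and CHP-212, and 12 of them were tested in both. Among these, 7 had the same sign of difference, ADAMTS12, CDH18, ITGA11, PCDH20, PCDHB16, PCDHB7 and PCDHB9, and 5 the opposite, ADAMTS4, CDH10, COL8A2, PCDH7 and PCDHGB2. The sign of PCDHGB2 in CHP-212 turned under normexp, and COL8A2 was 0.24 higher there without the slide of 0 and 12 h. Of 7 listed for IMR-32 and SK-N-BE(2), 5 were tested in both, with PCDH9 and TIMP3 of the same sign and COL4A1, COL4A2 and FBLN2 of opposite sign. FBLN2 was 0.84 higher on the arrays labelled FOXP1 of SK-N-BE(2) and not called, and 0.13 higher without the 24 h array labelled FOXP1. For CHP-212 and SK-N-BE(2) 4 members were listed, and 0 of them could be tested in both. These counts follow from lists that the differences themselves defined.

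Of 34 members tested but not listed in CHP-212, limma called 0, and 12 had an unadjusted p under 0.05, as had 18.3% of all probes. Of 53 in SK-N-BE(2), limma called 0 as well, and 7 had an unadjusted p under 0.05, beside 7.68% of all probes. Members that had differed on these arrays stood on the lists, so these counts of 0 follow in large part from the choice.

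The cell lines were compared as well, a contrast that the lists did not use. With both cultures of a line pooled, 8 arrays a line, 52 of the 77 members tested were called between IMR-32 and SK-N-BE(2), 24 higher and 28 lower in IMR-32, where 24.5% of all probes were, 11.1% higher and 13.5% lower. Between CHP-212 and SK-N-BE(2) 53 were called, 31 higher and 22 lower in CHP-212, beside 31.2% of all probes, 15.8% higher and 15.4% lower. For CHP-212 against IMR-32 the number was 52, with 36 higher and 16 lower in CHP-212, beside 31.4%, 17.3% higher and 14.1% lower. The median size of these differences was 1.57, 1.65 and 1.68 over the members and 0.54, 0.60 and 0.61 over all probes. With the slide as a random block 51, 50 and 49 members were called, beside 22.5%, 29.8% and 29.6% of all probes. With normexp 32, 39 and 34 members were, beside 13.6%, 20.6% and 18.8%. The called differences of CDH12 and COL21A1 between CHP-212 and SK-N-BE(2) changed sign under normexp. Because each slide held 1 line, line and slide can be separated only as far as a line spans 2 slides. Between CHP-212 and IMR-32, 4 of the 52, COL21A1, COL2A1, LAMB4 and PCDHB6, were well above background in neither line, so their differences are not measured levels. In the order IMR-32 against SK-N-BE(2), CHP-212 against SK-N-BE(2) and CHP-212 against IMR-32, 18, 14 and 7 of the members called had 1 line with fewer than 4 of 8 arrays well above background. Such a member passed the filter through another line, so the counts over all members are no support. The members were also chosen for differences between cultures of these lines, which move the means of the pooled lines, so nothing is read from their shares either. Of members well above background on each array of both lines, 26 of 42, 25 of 33 and 21 of 31 were called, where 19.1%, 27% and 25.1% of all such probes were. These members were chosen in the same way, so these shares are no support either.

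CHP-212 stood out for ADAMTS5, an aggrecanase, at 4.05 ± 0.52 (SD, n = 8) against -4.42 ± 0.73 in IMR-32. This difference of 8.47 was the highest among the members called in the contrast, with no overlap of the lines (limma, Benjamini-Hochberg adjusted p = 8.51e-20). Against SK-N-BE(2) ADAMTS5 was 78.0-fold higher in CHP-212. COL12A1 was 8.39 higher in CHP-212, at 2.44 ± 0.30 (SD, n = 8), than in SK-N-BE(2), with 5 of 8 SK-N-BE(2) arrays well above background, and 7.96 higher than in IMR-32, also with 5 of 8, or 9.64 between the GFP cultures and 6.27 between the FOXP1 cultures. CDH10 was at 3.93 ± 0.95 (SD, n = 8) in CHP-212 and -3.82 ± 0.96 in IMR-32, a difference of 7.75 with no overlap (limma, Benjamini-Hochberg adjusted p = 3.02e-18), which was 9.42 between the GFP cultures and 6.08 between the FOXP1 cultures. FBN2 was 7.14 higher in CHP-212 than in SK-N-BE(2), where 4 of 8 arrays were well above background.

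The lowest difference of CHP-212 against IMR-32 among the members called was that of COL4A2. It was at -2.56 ± 0.11 (SD, n = 8) in CHP-212 against 3.08 ± 1.20 in IMR-32, 49.9-fold lower with no overlap (limma, Benjamini-Hochberg adjusted p = 5.16e-21), and 16.8-fold lower than in SK-N-BE(2). Against IMR-32 the difference was -6.68 between the GFP cultures and -4.60 between the FOXP1 cultures. LAMA4 was highest in SK-N-BE(2), with differences of -5.11 in CHP-212, where 4 of 8 arrays were well above background, and -4.28 in IMR-32. TIMP3 had a difference of -5.34 in CHP-212 against IMR-32 with 1 of 8 CHP-212 arrays well above background, and FBLN2 of -4.22 with 2 of 8. Most of these arrays were at background, and with normexp the differences were -2.86 and -2.13. That of FBLN2 was -2.44 between the FOXP1 cultures and -6.00 between the GFP cultures.

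CDH22 was at least 11.8-fold lower in CHP-212 than in SK-N-BE(2). Its difference in IMR-32 against SK-N-BE(2) was -5.61 with 1 of 8 IMR-32 arrays well above background. As most IMR-32 arrays were at background, the exact size is not measured, and it ran from -7.28 to -2.25 under the alternatives. Of 17 clustered protocadherins tested, 0 were called as higher and 12 as lower in IMR-32 relative to SK-N-BE(2), beside 11.1% and 13.5% of all probes. In CHP-212 relative to SK-N-BE(2) 1 was higher and 10 lower, beside 15.8% and 15.4%. The count for IMR-32 differed between cultures. On the GFP arrays alone 0 were higher and 16 lower, beside 4048 and 4973 of all probes. On the FOXP1 arrays alone 1 was higher and 5 lower, beside 3957 and 4801. Of the family's 19 members 16 were listed for IMR-32 for a difference between these same cultures. Counts that set these cultures against another line thus follow in part from the choice, and nothing is read from them. With normexp and both cultures 0 were higher and 8 lower in IMR-32, beside 2575 and 2347 of all probes. In CHP-212 1 was higher and 5 lower, beside 4125 and 3338. PCDHB2 had means of 0.58 with FOXP1 and -4.84 with GFP in IMR-32, and -0.43 in either culture of SK-N-BE(2). PCDHB16 was 20.7-fold lower in CHP-212 with 5 of 8 arrays well above background, and PCDHB6 at least 10.8-fold lower in IMR-32 with 0 of 8. In IMR-32, PCDH8 led the members that were higher, at -0.86 ± 0.54 (SD, n = 8) against -5.90 ± 0.44, 32.8-fold. FBLN2 was 3.71 higher there, with 6 of 8 SK-N-BE(2) arrays well above background, and the difference was 1.78 between the FOXP1 cultures and 5.65 between the GFP cultures. With the GFP cultures alone 52, 48 and 51 members were called in the 3 contrasts, beside 24.9%, 30.8% and 31.1% of all probes. With the FOXP1 cultures alone 41, 47 and 48 were, beside 24.2%, 31.1% and 32%. Without the CHP-212 slide of 0 and 12 h, 54 were called in CHP-212 against SK-N-BE(2), beside 32% of all probes. Against IMR-32 48 were, 32 higher and 16 lower, beside 32.1%.

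**Figure D5:**
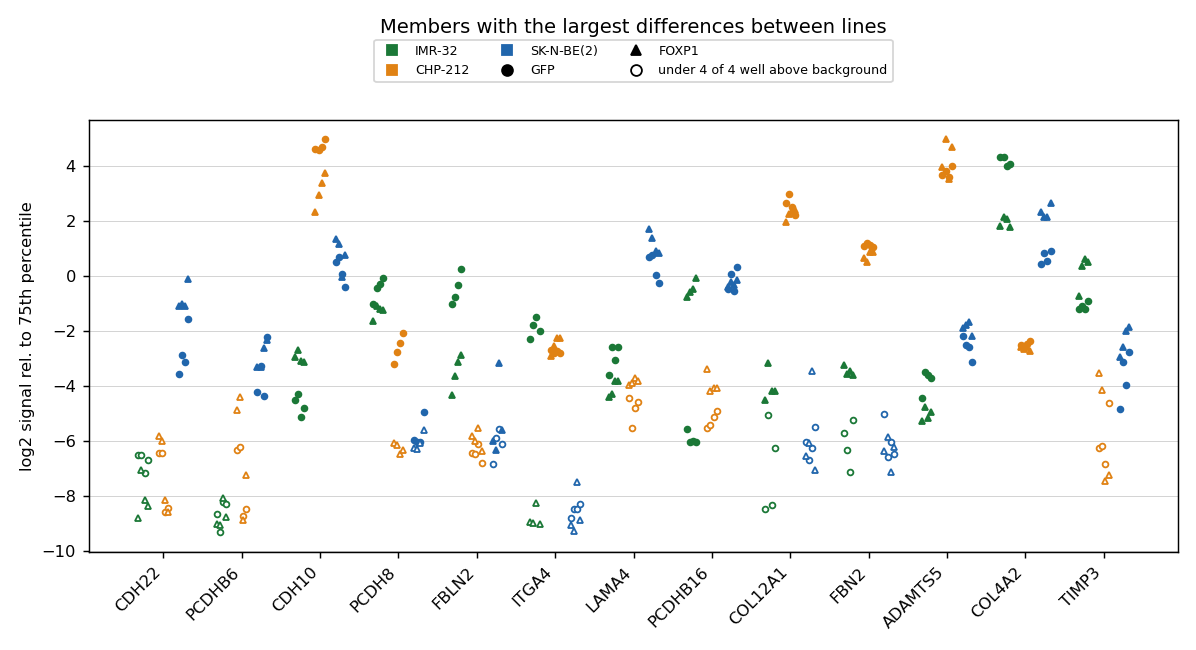
Levels of the members with the largest differences between lines, log2 relative to the 75th percentile of the array, with a point for each array, coloured by line, circles for GFP, triangles for FOXP1 and open symbols where fewer than 4 of 4 arrays were well above background. ADAMTS5 is highest in CHP-212 and COL4A2 lowest there.

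Scaling bears on these counts, as it moved the median of all probes by over 0.1 in some contrasts. With normexp the median of all probes went from -0.01 to 0.22 in IMR-32 between cultures and from 0.02 to 0.14 in CHP-212. Between lines it went from -0.09 to 0.13 for CHP-212 over SK-N-BE(2) and from -0.21 to 0.05 for IMR-32 over SK-N-BE(2). With quantile normalization it went from -0.21 to -0.06 for IMR-32 over SK-N-BE(2) and from 0.11 to -0.06 for CHP-212 over IMR-32. Between times, normexp took it from 0.02 to -0.12 for 12 h over 0 h, from -0.04 to -0.23 for 72 h over 24 h, and from -0.09 to -0.44 for the change of the ratio from 24 to 72 h. Among the members, 20 were called in IMR-32 with normexp, 17 higher and 3 lower, against 51, and the calls of ADAMTS5, ADAMTS12, CDH10, COL12A1, COL4A1, COL8A2, FBLN2, FBN2, ITGA3, LAMA4, PCDH7, PCDHA9, PCDHGB1, PCDHGB2 and PCDHGB3 were among those lost, each with its sign kept. Some of these kept little of their size, with ADAMTS12 at -0.08 and ADAMTS5 at -0.17. Of the probes called in IMR-32, 2142 were higher and 1980 lower, and 905 and 521 with normexp. In CHP-212 these numbers were 639 and 358, and 457 and 148 with normexp. Between CHP-212 and IMR-32 6284 were higher and 5094 lower in CHP-212, against 5267 and 6429 with quantile normalization and 5180 and 6392 in the deposited value table. Between IMR-32 and SK-N-BE(2) 4015 were higher and 4875 lower in IMR-32. The numbers became 4533 and 3775 with quantile normalization, 4514 and 3724 in the value table, and 2575 and 2347 with normexp. Between CHP-212 and SK-N-BE(2) 5730 were higher and 5571 lower in CHP-212. Here they became 5553 and 6222 with quantile normalization, 5489 and 6168 in the value table, and 4125 and 3338 with normexp.

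At 12 h against 0 h, over all cultures, limma with Benjamini-Hochberg adjustment called 0 of the 77 members tested, beside 2.64% of all probes, 0.141% higher and 2.5% lower. An unadjusted p under 0.05 was found for 4 members and for 11% of all probes. NCAM2, named after its values were seen, had the smallest p of these, with a difference of 0.72, higher in 5 of 6 cultures, that did not pass (limma, adjusted p = 0.114). At 72 h against 24 h limma called 0 members and 0% of all probes, and 7 members had an unadjusted p under 0.05, beside 8.18% of all probes. The ratio of FOXP1 over GFP was compared between times as well, from 0 to 12 h and from 24 to 72 h. Limma called 0 members in either comparison, and 0% of all probes were called. At an unadjusted p under 0.05 were 4 and 5 members, beside 3.92% and 5.4% of all probes. With the FOXP1 array of CHP-212 at 72 h left out, 1 member was called at 12 h against 0 h, and the other settings run called 0.

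Other genes of the matrix and of adhesion came from a list of 161 symbols, of which 58 had a named probe, each because a published list held it. The choice fixed their counts too, and nothing is read from them. Of the 36 listed for IMR-32, 31 were tested, and 14 were called higher and 17 lower, beside 12.2% of all probes called. RELN, the glycoprotein that guides migrating neurons, was at least 111-fold higher with FOXP1, and CYR61, a matricellular integrin ligand, 3.83 higher. CTNND2, a catenin of neural junctions, was at -4.83 and FRAS1, a basement membrane protein, at -3.13. In CHP-212, 19 of 28 were tested, with 10 called higher, among them CTGF, a matricellular protein, at 3.15 and LTBP1, which stores TGF-beta in the matrix, at 3.22, and 2 lower, DCN at -1.46 and RELN at -1.45, beside 3.03% of all probes. In SK-N-BE(2) 8 of 12 were tested, with 0 higher and 3 lower, RELN at -2.70, EMILIN2 at -2.18 and GPC5 at -1.72, beside 0.72% of all probes. Outside the lists as held, GPC3, a glypican, was called higher in SK-N-BE(2), at 2.25, and in IMR-32 ECM2 was called higher, at 1.03, and LTBP4 lower, at -1.15.

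The identity of the lines was checked on marker genes that had a named probe. Of the sympathoadrenal list 5 of 12 had one, CHGB, DBH, ELAVL4, STMN2 and TH. All 24 arrays had STMN2, a neuronal microtubule regulator, well above background, with means of 6.88 and 7.02 in the FOXP1 and GFP cultures of SK-N-BE(2), 5.48 and 3.83 in those of IMR-32, and 4.29 and 3.89 in those of CHP-212. TH, the first enzyme of catecholamine synthesis, had means of 1.82 and 1.89, of 2.18 and -1.16, and of 3.28 and 3.05 in the same order. CHGB, a protein of secretory granules, had means of 4.35 and 3.58, of 4.06 and 1.25, and of -4.77 and -5.28, the last with 2 of 4 arrays of each culture well above background. DBH, which makes noradrenaline, had means of 5.10 and 4.56, of 3.04 and -0.82, and of -4.06 and -6.13. ELAVL4, a neuronal RNA-binding protein, had means of 2.36 and 2.31 in SK-N-BE(2) and of -2.32 and -4.71 in CHP-212, and in IMR-32 it read 2.45, 2.48, 2.37 and 2.33 with FOXP1 and 3.40, 3.34, 2.91 and 2.76 with GFP, lower with FOXP1 at each time. In CHP-212 DBH and ELAVL4 were well above background on 3 of 4 FOXP1 and 2 of 4 GFP arrays.

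The other lists were less covered. Of the fibroblast list 2 of 6 genes had a probe: DCN had means of 1.37 and 2.83 in CHP-212, -5.41 and -5.16 in IMR-32, and -3.15 and -2.25 in SK-N-BE(2), and PDGFRA had means of -0.19 and -3.63, 1.41 and -0.32, and -3.75 and -4.86 in these lines. Of the mesenchymal list 1 of 6 had a probe, PRRX1, and of the blood list 1 of 3, PTPRC, both well above background on 0 arrays. Of the endothelial list 2 of 3 had a probe, KDR, with means from -6.49 to -5.52, and PECAM1, well above background on at most 1 array a culture. Of the Schwann list 0 of 4 had one. The part of cell state in the differences of matrix genes was not tested.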

How the data were processed

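Total RNA of 24 samples was measured on arrays of 1 colour, 1 sample an array. The authors extracted spot values with Agilent Feature Extraction 10.7.3.1, and the deposited scanner files give each spot's intensity on a linear scale, background-subtracted in the processed signal. Other columns of the deposited files flag outliers, saturation and spots well above background. The deposited value table holds linear intensity too, ranked as the processed signal (rho 1 on each array), with column medians of 155.58 to 156.59 and sorted values that differ by 0.088% between columns, as quantile normalization leaves them. Its normalization is not stated, and it served as an alternative.

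Control spots and 311 outlier spots were left out, and 1 saturated spot was kept. The log2 of the processed signal minus the 75th percentile of its array was fitted with limma 3.58.1 (lmFit and eBayes, R 4.3.3), with Benjamini-Hochberg adjustment over all probes tested. FOXP1 was compared with GFP within each line, and lines, times and ratios over time in fits of all 24 arrays, on the 36234 probes well above background on at least 4 of 8 arrays of a line. Calls took an adjusted p under 0.05 and, except over time, a fold of at least 2. The number of arrays limits the precision. The code was tested on simulated data. Python 3.11.15, numpy 2.4.6, pandas 2.3.3 and matplotlib 3.10.9 made tables and figures.

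The members, the other matrix genes and the cell type markers were chosen with earlier results of these data known. Probes were named only through the published lists, with 1 probe a member. Named members stood on 2 or more lists, had the 3 highest or 3 lowest differences of a line among listed members without overlap and with a culture well above background on all 4 arrays, led a contrast between lines or times, or belonged to the clustered protocadherins. Others are examples of their family, chosen after their values were seen.

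Alternatives were normexp (offset 50, on median spot signals), quantile normalization, the value table, other filters, 1 fit of all arrays, a block for the slide or for the time point, the methods' t-test, the 0 h arrays left out and each array left out. Fits with 24 and 72 h alone, with the spread of all groups, without the CHP-212 slide of 0 and 12 h, and, between lines, on FOXP1 arrays alone were added after seeing the data. Arrays of the same time deviated together from their culture's mean in IMR-32 (correlations of 0.375 to 0.601) and in SK-N-BE(2) (0.37 to 0.67), so the time points pair these arrays. Promoters are from RefSeq on GRCh38.p14, where 74 of the 98 members were found by symbol.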

Additional observations from a re-analysis of the deposited data

Results flagged for a closer look

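In 3 of the 94 groups of 4 arrays examined, 1 array stood apart. Its gap to the nearest of the others divided by the group's range reached Dixon's 95% critical value of 0.829. The 3 cases include CDH22 on the 72 h array labelled FOXP1 of SK-N-BE(2), with a share of 0.901. PCDHB16 on the 0 h GFP array of IMR-32 had 0.898. PCDHGB1 on the 72 h FOXP1 array of IMR-32 had 0.829, equal to the limit at the digits given. Chance alone marks about 1 in 20 groups.

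For 7 members the difference between FOXP1 and GFP had 1 sign at each time in a line and the opposite sign at each time in another, with at least 2-fold in both. The difference in IMR-32 minus that in CHP-212 was 3.33 for CDH10, -6.00 for COL16A1, -3.57 for COL8A2, -2.14 for LAMA4, -4.68 for SPON2 and -5.92 for THBS4. For COL4A2 the difference in IMR-32 minus that in SK-N-BE(2) was -3.86. These differences between lines were not tested.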

How the results depend on the processing

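The number of probes called between FOXP1 and GFP fell with normexp, from 4122 to 1426 in IMR-32 and from 997 to 605 in CHP-212, and between lines from 8890 to 4922 for IMR-32 against SK-N-BE(2), from 11301 to 7463 for CHP-212 against SK-N-BE(2) and from 11378 to 6794 for CHP-212 against IMR-32. With a filter for probes that every array of a comparison had well above background, so with fewer probes tested, the last 3 were 5300, 5763 and 5329, and CHP-212 between cultures 628. With the 24 and 72 h arrays alone 106 were called in SK-N-BE(2) and 518 in CHP-212, and without the 0 h arrays 40 in SK-N-BE(2), against 245. The methods' t-test gave 650 in CHP-212 after Benjamini-Hochberg adjustment, and in SK-N-BE(2) 121 after it and 537 unadjusted. At 12 h against 0 h, 956 probes became 551 with normexp, 602 with that filter, 197 on GFP arrays and 21 on FOXP1 arrays. With each array left out in turn the count was 3937 to 4246 in IMR-32, 620 to 1073 in CHP-212, 127 to 213 in SK-N-BE(2) and 670 to 1201 at 12 h against 0 h. The 620 came without the GFP array of 72 h. PCDHB17 in IMR-32 turned from -1.98 to 0.11 with normexp, and ITGA4 in IMR-32 against SK-N-BE(2) from 3.24 to -0.13 on FOXP1 arrays alone, 0 of which had it well above background in these lines. The cause of these changes was not tested.

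Among 1736 values of named members under an alternative, 65 lost the call, 18 gained it, and 2 called values, those of PCDHB17 and ITGA4, changed sign. The others, 1651, kept their side of the threshold, and of these PCDHGB2 in CHP-212, not called at -0.50, was at 0.20 with normexp. Some alternatives, such as leaving out an array of a line outside the contrast, could hardly move a value. The tally is thus no measure of how stable the values are. Of 68 called values 39 were called with 1 sign under each alternative. A block for the time point gave 477 called probes in SK-N-BE(2), 1169 in CHP-212 and 4377 in IMR-32. Among the members the block called 53 in IMR-32, 27 higher and 26 lower, where the unpaired fit called 51, 27 higher and 24 lower. In CHP-212 the pairs of 12, 24 and 72 h had correlations of 0.491, 0.549 and 0.445 in the pairing check and that of 0 h 0.0535, under the 0.1 asked of every pair, so pairing was not taken as given there.

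Dim probes limit the results: the lists and the filter favour members that are bright in 1 culture, differences near background have only bounds, and in CHP-212 the slide of 0 and 12 h raised the lowest measurable level. The 4 arrays of a culture are 1 culture over time.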
